A study of Mus musculus with 16 samples.

Results

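The enzymes that make and break down the cyclic nucleotide messengers were followed in hippocampal cultures with normal and with reduced Dnmt3a1. All protein-coding mouse genes whose symbol is Adcy or Pde followed by a number were taken, which gave 36 genes (10 Adcy genes and 26 Pde genes) of the 55385 genes in each file. The cultures were prepared from hippocampi of newborn C57Bl/6N mice and were infected with recombinant adeno-associated virus carrying either a control hairpin (Control-shRNA) or a hairpin against Dnmt3a1 (Dnmt3a1-shRNA), the hairpin being driven by a U6 promoter and a green fluorescent reporter by a chicken β-actin promoter. Each infected culture was left at baseline or was treated for 4 h with bicuculline, which blocks GABA-A receptors and so raises synaptic firing, and the 4 resulting groups held 4 libraries each, from independent neuronal preparations. A single hairpin sequence targeted Dnmt3a1 in these libraries, so that loss of Dnmt3a1 and any other effect of that hairpin cannot be told apart. The RNA came from whole mixed cultures, in which fewer cells of a type and less RNA per cell cannot be told apart.

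Adenylyl cyclases convert ATP to cAMP. The membrane forms are switched by G proteins, and in neurons some are also stimulated (Adcy1, Adcy3, Adcy8) or inhibited (Adcy5, Adcy6) by calcium, which ties cAMP production to synaptic activity. Phosphodiesterases hydrolyse cAMP, cGMP or both and so set how long and how far each signal travels. In the hippocampus this balance acts on protein kinase A, on CREB-dependent transcription and on synaptic plasticity and memory. Pde12 (a mitochondrial enzyme that trims RNA) and Pde4dip (a scaffold protein that binds Pde4d) carry the symbol without being cyclic nucleotide phosphodiesterases, and Pde6d, Pde6g and Pde6h encode subunits without a catalytic domain. That leaves 21 catalytic phosphodiesterase genes.

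The libraries held 28912697 to 29586355 estimated counts each. Dnmt3a, counted over all of its transcripts, read 312 ± 13.8 CPM (estimated counts scaled to a common library size and composition, SD, n = 4) in Control-shRNA at baseline and 44.5 ± 3.7 CPM in Dnmt3a1-shRNA at baseline, and 327 ± 11.8 and 45.3 ± 1.7 CPM with bicuculline. The activity-regulated gene Fos rose by 6.40 and 6.19 on the log2 scale with bicuculline in Control-shRNA and Dnmt3a1-shRNA, so that Dnmt3a was low in the libraries labelled for its hairpin and Fos high in those labelled as treated. At baseline Fos was also higher in Dnmt3a1-shRNA than in Control-shRNA (0.58, adjusted p = 0.0437, edgeR quasi-likelihood test). That difference missed the thresholds given below in 12 of the 16 fits without 1 library. In the same test Npas4 gave 0.61 (adjusted p = 0.0712) and Arc −0.39 (adjusted p = 0.311). With bicuculline the same test gave 0.37 for Fos (adjusted p = 0.136), −0.08 for Npas4 (adjusted p = 0.831) and 0.05 for Arc (adjusted p = 0.903). The paper, which used limma with voom, reported these genes as not altered by the hairpin. Markers of neurons were abundant (5 genes, summed to between 3227 and 4351 TPM, a length-corrected level), against 146 to 422 TPM for 7 astrocyte genes and 8.96 to 20.6 TPM for 6 microglial genes, so that the cultures were neuronal with glial RNA present.

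The members spanned more than 3 orders of magnitude in length-corrected level. In Control-shRNA cultures at baseline, Pde2a, a cGMP-stimulated enzyme that degrades both nucleotides, had the highest mean at 159.8 ± 13.7 TPM (SD, n = 4), followed by the calcium-stimulated cyclase Adcy1 at 130.0 ± 22.0 TPM and the calcium/calmodulin-activated phosphodiesterase Pde1a at 125 ± 6.7 TPM. The libraries of Adcy1 (105 to 158 TPM) overlapped those of both neighbours (146 to 172 TPM for Pde2a and 116 to 132 TPM for Pde1a), so the order within this leading trio was within the spread except that Pde2a lay above Pde1a in all 4 libraries. Pde4dip (87.8 ± 7.8 TPM), Pde6d (77.9 ± 3.5 TPM), Pde4a (58.0 ± 2.6 TPM) and Adcy5 (49.9 ± 2.3 TPM) came next, and of these only Pde4dip and Pde6d overlapped. Among the Pde4 genes, which encode cAMP-specific enzymes, Pde4a stood above Pde4d (34.1 ± 5.9 TPM) and Pde4b (24.6 ± 3.2 TPM), and Pde4d and Pde4b did overlap. The level plot shows this order.

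**Figure D1:**
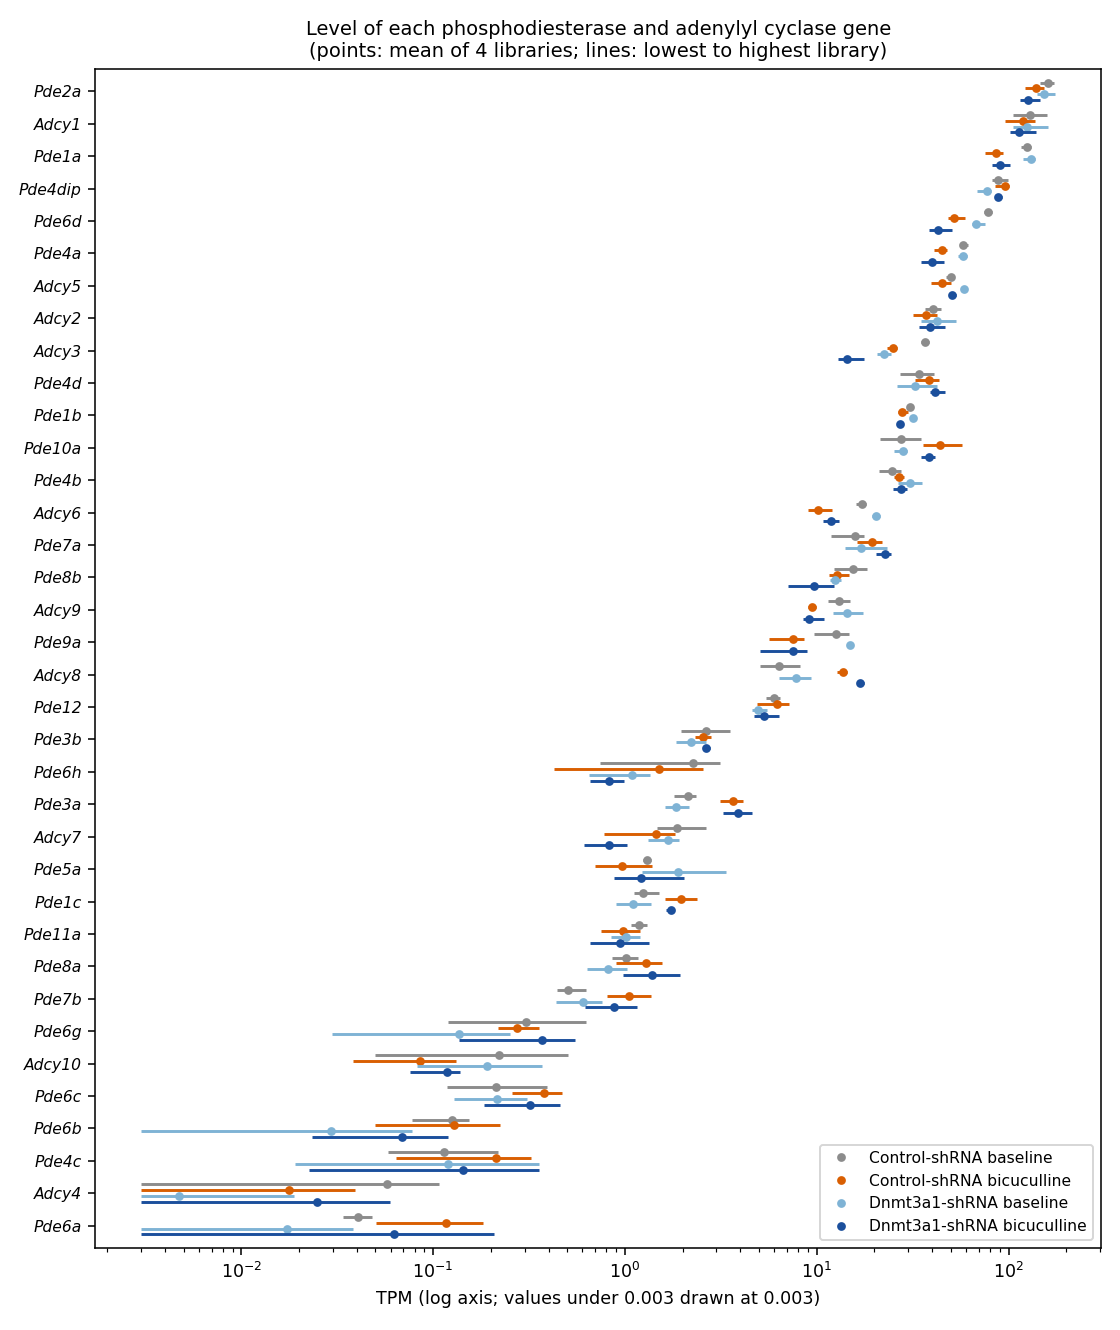
Level of each of the 36 members in TPM (log axis) in the 4 groups, with points for group means and bars for the range over 4 libraries. Pde2a has the highest mean in each group, and the 5 members that were too low to test are among the 7 lowest.

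At the low end, 5 members did not pass the filter on low counts and were not tested. These were the cyclase Adcy4, with a mean of 0.875 counts per library, the cAMP-specific Pde4c with 4.58, and the photoreceptor genes Pde6a, Pde6b and Pde6g with 2.29, 3.31 and 3.73. The other 31 members were tested, among them the soluble cyclase Adcy10 and the cone phosphodiesterase Pde6c, which had means of only 7.88 and 11.2 counts per library.

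Per family, Adcy1 alone supplied 43.7 ± 3.00% (SD, n = 4) of the summed cyclase TPM in Control-shRNA at baseline. Pde2a and Pde1a supplied 31.1 ± 1.97% and 24.3 ± 1.76% of the summed TPM of the 21 catalytic phosphodiesterases. With bicuculline, the Adcy1 share was 45.5 ± 2.38%, while the share of Adcy8 was 5.26 ± 0.491% against 2.13 ± 0.259% at baseline in Control-shRNA, and 6.62 ± 0.510% against 2.65 ± 0.385% in Dnmt3a1-shRNA. Pde10a supplied 9.62 ± 2.27% of the phosphodiesterase TPM with bicuculline against 5.33 ± 1.12% at baseline in Control-shRNA, and Pde1a 18.6 ± 2.13% against 24.3 ± 1.76%. A share also moves when other members of its family move, and these shares are given without a test.

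**Figure D2:**
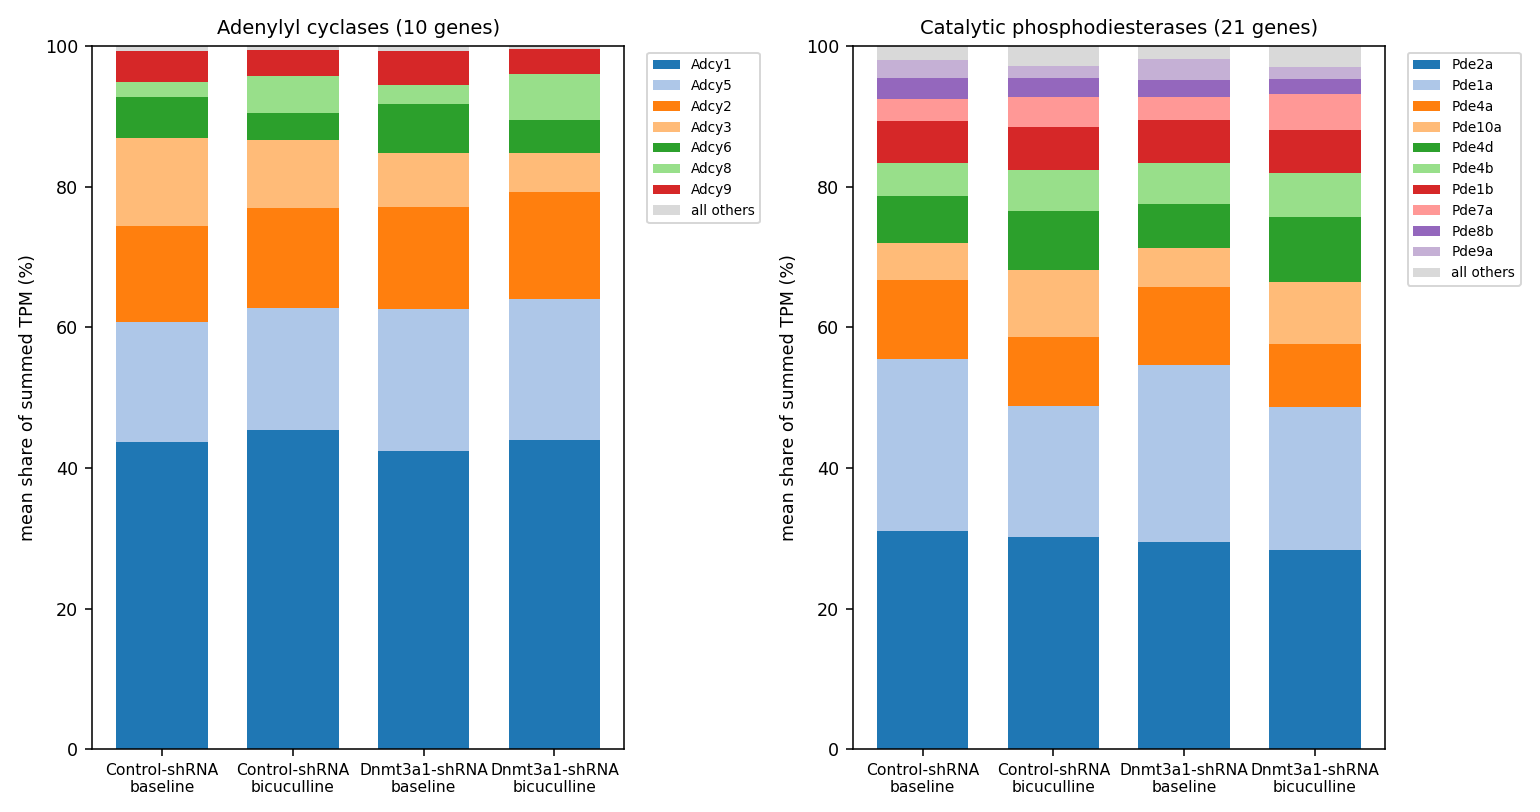
Mean share (%) of each gene in the summed TPM of the 10 adenylyl cyclases (left) and the 21 catalytic phosphodiesterases (right) in the 4 groups (n = 4 libraries each), with the smallest members pooled as all others. Adcy8 rises from 2.13% to 5.26% of the cyclase TPM with bicuculline in Control-shRNA, and Adcy3 falls from 12.4% to 7.69% between the hairpins at baseline.

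The first question was how 4 h of raised synaptic activity changed these genes. A gene was called when its adjusted p (edgeR quasi-likelihood test with Benjamini-Hochberg adjustment over 17222 genes) was under 0.05 and its log2 fold change exceeded 0.5 in either direction. In Control-shRNA cultures, 9 of the 31 tested members (29.0%) were called, against 21.9% of all genes tested, with 7 members higher (10.8% of all genes) and 2 lower (11.1% of all genes). In Dnmt3a1-shRNA cultures, 12 members (38.7%) were called against 25.8% of all genes, with 9 higher (12.6% of all genes) and 3 lower (13.2% of all genes). The median log2 fold change of the tested members was 0.08 and −0.01, beside 0.01 and −0.01 over all genes, and the median absolute change was 0.34 and 0.45, beside 0.27 and 0.30. Most of the called members that rose were phosphodiesterases, with 6 of 18 tested catalytic genes higher in Control-shRNA and 8 of 18 in Dnmt3a1-shRNA, whereas of the 9 tested cyclases 1 rose (Adcy8) and 1 fell (Adcy6) in each. In all, 8 members were called under both hairpins, each in the same direction. Paired values are given with baseline before bicuculline and Control-shRNA before Dnmt3a1-shRNA. The plot of bicuculline changes shows all tested members side by side.

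**Figure D3:**
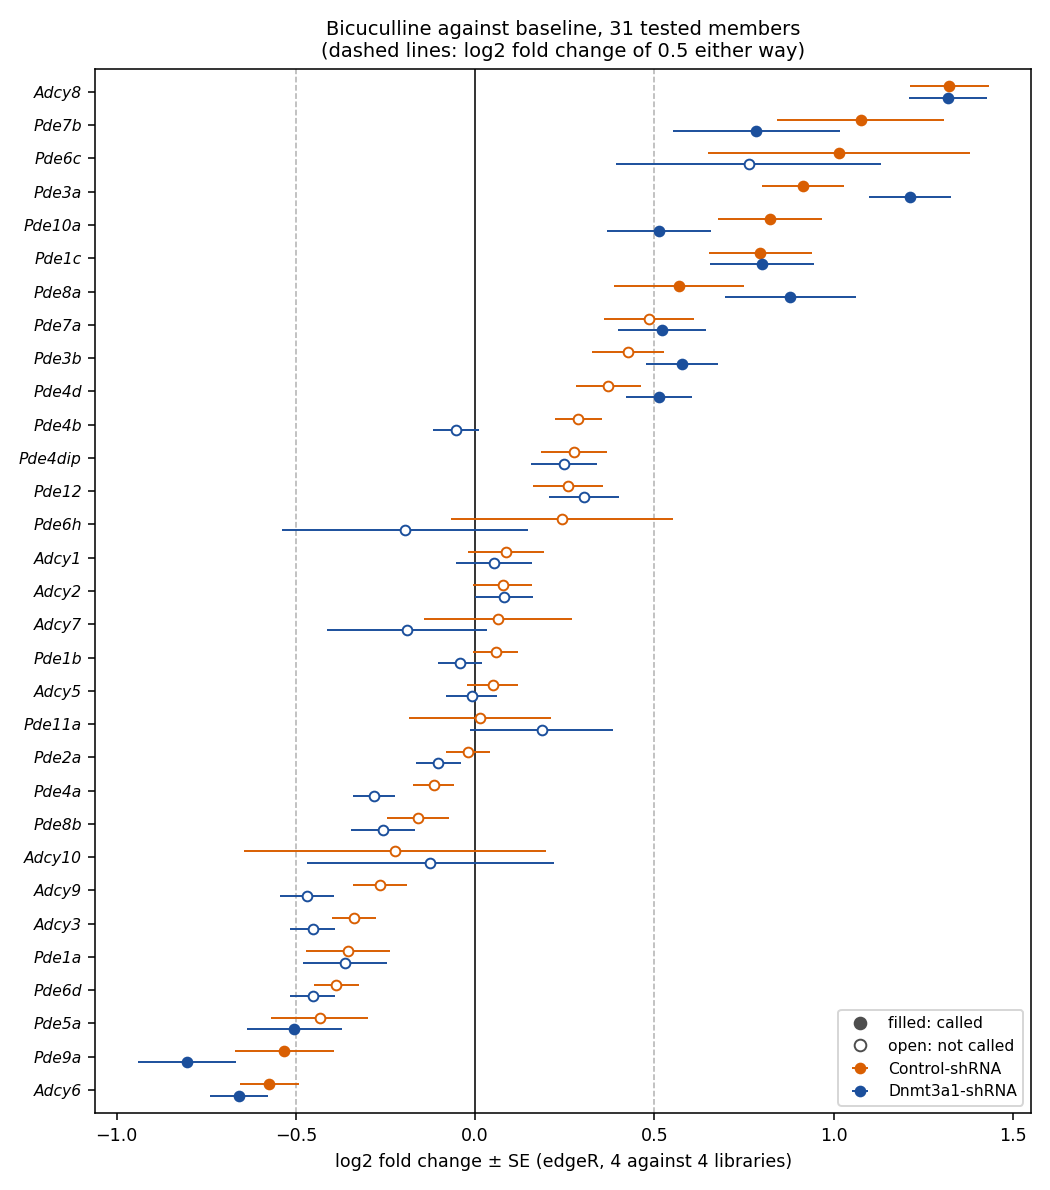
Log2 fold change (± SE) of the 31 tested members with bicuculline against baseline in Control-shRNA and in Dnmt3a1-shRNA (n = 4 libraries per group), with filled points for called members. Adcy8 lies at 1.32 in both, and Pde9a and Adcy6 lie lowest.

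In summed TPM the GABAergic marker list was higher with the treatment. The neuronal and excitatory lists were lower in that sum, though in edgeR only 1 gene of each was called lower. The neuronal list ranged from 3651 to 4138 at baseline and 3233 to 3525 with bicuculline in Control-shRNA, and from 3821 to 4351 and 3227 to 3624 in Dnmt3a1-shRNA. The excitatory list ranged from 1607 to 1695 and 1190 to 1400.5 in Control-shRNA, and from 1374 to 1564 and 1022 to 1336 in Dnmt3a1-shRNA. Of the 3 GABAergic genes, Gad1 and Gad2 were called higher with bicuculline under both hairpins. The summed TPM of that list ranged from 877 to 1002 at baseline and 1121 to 1268 with bicuculline in Control-shRNA, and from 560 to 742 and 840 to 986 in Dnmt3a1-shRNA. Under each hairpin 1 of 5 neuronal, 1 of 4 excitatory and 1 of 6 tested oligodendrocyte-lineage markers were lower and 0 of 7 astrocyte and 0 of 2 tested microglial markers were called, while of 6 tested fibroblast and vessel markers 2 were higher in Control-shRNA and 1 in Dnmt3a1-shRNA. The lower neuronal marker was Tubb3 (log2 fold change −0.77 in Control-shRNA and −1.12 in Dnmt3a1-shRNA). Rbfox3, Map2, Snap25 and Syt1 gave 0.16, 0.23, 0.36 and 0.18 in Control-shRNA, and 0.12, 0.27, 0.37 and 0.19 in Dnmt3a1-shRNA. The lower excitatory marker was Neurod6 (−1.29 and −1.14), while the median of that list was 3.56e-05 and −0.020. The part of these cell types in the changes of the members was not tested.

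Promoter sequence was read for the 4 members with the largest changes in Control-shRNA among those called with bicuculline under both hairpins. A shared activity-responsive element or CpG content would be looked for there. Pde6c, called in Control-shRNA alone, was thus left out. The 4 were Adcy8, Pde7b, Pde3a and Pde10a. RefSeq windows (GRCm38.p6) matched Pde7b and Pde10a of these 4. The 250 bases before each start site are given 5′ to 3′ on the gene's strand with each CG dinucleotide, the target of DNA methyltransferases, in capitals. The Pde7b window is chr10:20548329-20548578 on the minus strand, the first Pde10a window chr17:8801495-8801744 and the second chr17:8849735-8849984, both on the plus strand.
Pde7b: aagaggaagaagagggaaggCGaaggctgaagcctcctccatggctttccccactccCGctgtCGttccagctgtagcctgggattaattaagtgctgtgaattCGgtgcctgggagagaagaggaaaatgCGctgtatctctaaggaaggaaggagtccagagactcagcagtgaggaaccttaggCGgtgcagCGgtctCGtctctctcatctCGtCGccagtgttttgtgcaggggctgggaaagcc
Pde10a, first start: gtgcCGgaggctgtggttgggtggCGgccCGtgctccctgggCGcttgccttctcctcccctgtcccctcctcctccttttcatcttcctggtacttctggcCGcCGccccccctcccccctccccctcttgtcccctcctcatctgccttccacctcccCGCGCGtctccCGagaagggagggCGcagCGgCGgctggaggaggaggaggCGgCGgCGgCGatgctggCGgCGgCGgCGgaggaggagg
Pde10a, second start: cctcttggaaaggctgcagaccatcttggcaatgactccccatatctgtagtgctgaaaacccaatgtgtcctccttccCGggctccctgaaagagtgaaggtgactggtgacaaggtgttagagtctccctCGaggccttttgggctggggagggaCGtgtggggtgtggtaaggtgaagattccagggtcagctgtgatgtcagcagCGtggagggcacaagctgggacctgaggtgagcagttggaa
All 3 start sites are internal to their gene, 176750 bases downstream of the first annotated start for Pde7b and 276373 and 324613 bases downstream for Pde10a. The first Pde10a window held 21 CG dinucleotides, the Pde7b window 10 and the second Pde10a window 4. None of the windows of 300 bases (250 before and 50 after the start) held the cAMP response element TGACGTCA, its core TGACG or the AP-1 element TGANTCA on either strand.

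Over all 27 members with a window, 0 held TGACGTCA, beside 2.03% of the 27025 genes with one. The core TGACG, which lies inside TGACGTCA, was found in 9 members (33.3%, against 23.0% of genes), and TGANTCA in 5 (18.5%, against 8.97%). Members had more windows per gene, 52 for 27 members against 32851 for 27025 genes, so these shares are not on a like footing. Per window, TGACG was found in 9 of 52 beside 20.8% of all windows, and TGANTCA in 5 of 52 beside 7.81%. The members with the core were Adcy7, Adcy9, Pde1a, Pde2a, Pde4a, Pde4b, Pde6h, Pde8a and Pde8b, and of these Pde8a alone was called with bicuculline. The members with TGANTCA were Adcy3, Adcy7, Pde1c, Pde6b and Pde6h, and of these Pde1c alone was called with bicuculline. Adcy3 and Adcy7, the latter also holding the core, were called between hairpins. The 52 member windows held a median of 8 CG dinucleotides (range 1 to 44), beside 7 over all windows. These matches describe letters in a window and no methylation was measured.

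Among the cyclases, Adcy8, the calcium/calmodulin-stimulated form (chr15:64697084-64922296, minus strand, GRCm38), changed most. It read 17.3, 21.9, 24.8 and 17.8 CPM in the Control-shRNA baseline libraries and 54.0, 53.4, 49.97 and 47.3 CPM with bicuculline. In Dnmt3a1-shRNA it read 24.4, 31.3, 29.6 and 23.6 CPM at baseline and 71.5, 69.9, 64.8 and 65.5 CPM with bicuculline. Every treated library lay above every baseline library. Its log2 fold change was 1.32 ± 0.11 (SE, adjusted p = 3.82e-08) in Control-shRNA and 1.32 ± 0.11 (SE, adjusted p = 2.60e-08) in Dnmt3a1-shRNA, a 2.50-fold and 2.49-fold difference. No other calcium-stimulated cyclase rose, Adcy1 giving 0.09 ± 0.11 (SE, adjusted p = 0.561) and 0.05 ± 0.11 (SE, adjusted p = 0.726).

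Adcy6, a calcium-inhibited cyclase (chr15:98589973-98610076, minus strand), moved the opposite way. Its levels were 40.2, 35.7, 31.4 and 36.6 CPM at baseline and 23.8, 24.3, 22.7 and 25.8 CPM with bicuculline in Control-shRNA. Under Dnmt3a1-shRNA they were 50.1, 46.2, 40.9 and 47.6 and 27.4, 27.9, 32.1 and 29.5 CPM. The groups did not overlap under either hairpin, and the log2 fold change was −0.57 ± 0.08 (SE, adjusted p = 2.19e-05) and −0.66 ± 0.08 (SE, adjusted p = 3.29e-06). Its close relative Adcy5 was not called (0.05 ± 0.07 SE, adjusted p = 0.629, and −0.0097 ± 0.07 SE, adjusted p = 0.928). Adcy3 and Adcy9, the latter a broadly expressed cyclase that forskolin hardly stimulates, passed the p threshold below the fold threshold, with log2 fold changes of −0.34 and −0.45 for Adcy3 and −0.27 and −0.47 for Adcy9. In Dnmt3a1-shRNA, Adcy3 became called without bicuculline replicate 3, at −0.504 (adjusted p = 5.88e-06), and Adcy9 without baseline replicate 2, at −0.53 (adjusted p = 7.75e-06), or bicuculline replicate 3, at −0.52 (adjusted p = 4.53e-05). The cyclases Adcy2, Adcy7 and Adcy10 passed neither threshold under either hairpin, with log2 fold changes from −0.22 (Adcy10, Control-shRNA) to 0.08. On the TPM scales Adcy7 was called lower with bicuculline in Dnmt3a1-shRNA (−0.56, adjusted p = 0.00627 for log2(TPM + 1), and −0.95, adjusted p = 0.00575 for log2(TPM + 0.1), limma), against −0.19 in edgeR.

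The catalytic phosphodiesterases that degrade both nucleotides included the largest change of this enzyme class in Dnmt3a1-shRNA, that of Pde3a (chr6:141249269-141507448, plus strand). Pde3a, an enzyme whose cAMP hydrolysis is inhibited by cGMP, read 13.5, 10.4, 12.3 and 13.8 CPM at baseline and 22.6, 24.1, 25.0 and 22.3 CPM with bicuculline in Control-shRNA. In Dnmt3a1-shRNA it read 12.7, 9.51, 11.1 and 11.2 CPM and 30.9, 26.9, 21.6 and 23.9 CPM. All treated libraries exceeded all baseline libraries, with a log2 fold change of 0.91 ± 0.11 (SE, adjusted p = 4.80e-06) and 1.21 ± 0.12 (SE, adjusted p = 1.48e-07). Pde3a shares 741 of its 12737 annotated exon bases with Gm28523 on the opposite strand, a gene with a mean of 12.2 counts per library against 520.1 for Pde3a, and the strand setting of the counting is not given in the sources used here.

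Pde3b, its paralog, ranged from 5.60 to 6.84 CPM at baseline to 7.997 to 8.85 CPM with bicuculline in Control-shRNA, and passed the fold threshold only in the other cultures. There it read 6.75, 5.49, 6.26 and 6.53 CPM and, with bicuculline, 9.98, 9.85, 8.10 and 9.47 CPM, groups that did not overlap. This gave a log2 fold change of 0.58 ± 0.10 (SE, adjusted p = 1.27e-04) in Dnmt3a1-shRNA and 0.43 ± 0.10 (SE, adjusted p = 0.00228) in Control-shRNA. The Dnmt3a1-shRNA call was lost with library sizes alone (0.43, adjusted p = 6.95e-04) and on the log2(TPM + 1) (0.19, adjusted p = 0.236) and log2(TPM + 0.1) (0.26, adjusted p = 0.248) scales. With TPM in place of counts the Control-shRNA difference had the other sign and was close to 0 (−0.026 on the log2(TPM + 1) scale, adjusted p = 0.897, limma).

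Pde1c, a calcium/calmodulin-activated enzyme, read 4.08, 3.61, 4.96 and 4.22 CPM at baseline and 9.31, 5.47, 7.72 and 6.81 CPM with bicuculline in Control-shRNA. Under Dnmt3a1-shRNA the values were 3.62, 3.83, 4.45 and 3.84 CPM and 7.69, 6.63, 6.24 and 6.91 CPM. Treated libraries lay above baseline ones throughout, at a log2 fold change of 0.79 ± 0.14 (SE, adjusted p = 2.27e-04) and 0.80 ± 0.15 (SE, adjusted p = 1.92e-04). Both calls were lost on the log2(TPM + 1) scale (0.40, adjusted p = 0.00366, and 0.38, adjusted p = 0.00421, limma), where a low gene's change is understated. The other calcium/calmodulin-activated genes did not follow, since Pde1a gave −0.35 and −0.36 (past the p threshold, under the fold threshold) and Pde1b gave 0.06 (adjusted p = 0.504) and −0.042 (adjusted p = 0.616).

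Pde10a, the enzyme best known from striatal projection neurons and the gene with the CG-rich and the CG-poor window printed here, was the highest of the called phosphodiesterases in CPM. It read 91.6, 74.7, 84.5 and 109 CPM at baseline and 211, 128, 135 and 161 CPM with bicuculline in Control-shRNA, and 121, 94.1, 101 and 108 CPM and 177, 136, 135 and 156 CPM in Dnmt3a1-shRNA. The groups did not overlap under either hairpin. On the log2 scale the change was 0.82 ± 0.15 (SE, adjusted p = 1.82e-04) in Control-shRNA and 0.51 ± 0.14 (SE, adjusted p = 0.00728) in Dnmt3a1-shRNA. The latter value sat close to the fold threshold and was no longer called without Dnmt3a1-shRNA baseline replicate 2 (0.46, adjusted p = 0.0254), baseline replicate 3 (0.49, adjusted p = 0.0215), bicuculline replicate 1 (0.42, adjusted p = 0.0296) or bicuculline replicate 4 (0.49, adjusted p = 0.0198), with library sizes alone (0.36, adjusted p = 0.0182) or on the log2(TPM + 1) (0.44, adjusted p = 0.0173) and log2(TPM + 0.1) (0.45, adjusted p = 0.0166) scales. Pde2a, the most abundant member, was not called (−0.020 ± 0.06 SE, adjusted p = 0.830, and −0.10 ± 0.06 SE, adjusted p = 0.197), nor was Pde11a (0.014 ± 0.20 SE, adjusted p = 0.963, and 0.19 ± 0.20 SE, adjusted p = 0.485).

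Of the cAMP-specific phosphodiesterases, 2 of 7 tested genes rose in Control-shRNA (Pde7b and Pde8a) and 4 of 7 in Dnmt3a1-shRNA (these and Pde4d and Pde7a), beside 10.8% and 12.6% of all genes called higher. In Dnmt3a1-shRNA, Pde4d, Pde7a and Pde7b were not called on either TPM scale. Pde7b, a low-abundance gene whose promoter window is also printed here, read 0.922, 0.833, 1.13 and 0.922 CPM at baseline and 1.94, 1.78, 2.78 and 1.51 CPM with bicuculline in Control-shRNA. In Dnmt3a1-shRNA it read 1.34, 0.916, 0.921 and 1.12 CPM and 1.23, 2.09, 2.42 and 1.62 CPM, where 1 treated library (replicate 1) fell below the highest baseline library. The fitted log2 fold change was 1.07 ± 0.23 (SE, adjusted p = 0.00116) and 0.78 ± 0.23 (SE, adjusted p = 0.0103). In Dnmt3a1-shRNA the call was lost on the log2(TPM + 1) scale (0.22, adjusted p = 0.126, limma) and the log2(TPM + 0.1) scale (0.45, adjusted p = 0.134, limma), and in Control-shRNA on the log2(TPM + 1) scale (0.44, adjusted p = 0.00410, limma).

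Pde8a, a high-affinity cAMP enzyme that resists most phosphodiesterase inhibitors, read 1.58, 1.98, 1.40 and 1.75 CPM and, with bicuculline, 1.94, 3.09, 2.47 and 2.46 CPM in Control-shRNA, groups that overlapped at replicate 1 of the treated libraries. In Dnmt3a1-shRNA it read 1.30, 1.73, 1.75 and 1.35 CPM and 2.26, 3.55, 2.64 and 2.84 CPM, with no overlap. The change in log2 units was 0.57 ± 0.18 (SE, adjusted p = 0.0172) and 0.88 ± 0.18 (SE, adjusted p = 6.64e-04). In Control-shRNA Pde8a was not called without baseline replicate 3 (0.49, adjusted p = 0.0575) or bicuculline replicate 2 (0.45, adjusted p = 0.0692), with library sizes alone (0.41, adjusted p = 0.104), on the log2(TPM + 1) scale (0.18, adjusted p = 0.267) or on the log2(TPM + 0.1) scale (0.31, adjusted p = 0.306), and in Dnmt3a1-shRNA not on the log2(TPM + 1) scale (0.38, adjusted p = 0.0191). Its paralog Pde8b gave −0.16 (adjusted p = 0.159) and −0.26 (adjusted p = 0.0234), under the fold threshold.

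Pde7a read 30.0, 23.9, 24.7 and 29.4 CPM at baseline and 40.3, 33.5, 37.1 and 40.2 CPM with bicuculline in Control-shRNA, and 37.9, 25.4, 27.3 and 35.9 CPM and 52.7, 43.1, 39.8 and 45.9 CPM in Dnmt3a1-shRNA. Treated libraries were above baseline libraries under both hairpins, yet the fold threshold was passed only in Dnmt3a1-shRNA (0.52 ± 0.12 SE, adjusted p = 0.00210, against 0.48 ± 0.12 SE, adjusted p = 0.00439 in Control-shRNA). Both values lay at the threshold. Leaving out Control-shRNA baseline replicate 1, baseline replicate 4 or bicuculline replicate 2 brought the Control-shRNA value to 0.54 (adjusted p = 0.00498), 0.53 (adjusted p = 0.00599) and 0.54 (adjusted p = 0.00378). Leaving out Dnmt3a1-shRNA baseline replicate 2, baseline replicate 3 or bicuculline replicate 1 brought the Dnmt3a1-shRNA value to 0.43 (adjusted p = 0.00835), 0.46 (adjusted p = 0.00958) and 0.44 (adjusted p = 0.00950). The Dnmt3a1-shRNA call was also lost with library sizes alone (0.37, adjusted p = 0.00453) and on the log2(TPM + 1) (0.42, adjusted p = 0.0334) and log2(TPM + 0.1) (0.44, adjusted p = 0.0323) scales. The difference between the hairpins was itself not called (log2 difference 0.036 ± 0.18 SE, adjusted p = 1, edgeR interaction).

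The Pde4 genes changed by less. Pde4d read 44.9, 47.8, 56.4 and 53.2 CPM at baseline and 60.4, 68.9, 70.2 and 62.4 CPM with bicuculline in Control-shRNA, and 50.1, 44.0, 61.0 and 53.7 CPM and 76.2, 72.5, 78.8 and 70.8 CPM in Dnmt3a1-shRNA, in each case without overlap. Its log2 fold change was 0.37 ± 0.09 (SE, adjusted p = 0.00316) and 0.51 ± 0.09 (SE, adjusted p = 1.59e-04), and only the second was called. That call was lost without Dnmt3a1-shRNA baseline replicate 1 (0.49, adjusted p = 8.22e-04), baseline replicate 2 (0.44, adjusted p = 5.66e-04), bicuculline replicate 1 (0.497, adjusted p = 7.43e-04) or bicuculline replicate 3 (0.48, adjusted p = 8.42e-04), with library sizes alone (0.36, adjusted p = 0.00987) and on the log2(TPM + 1) (0.36, adjusted p = 0.0484) and log2(TPM + 0.1) (0.36, adjusted p = 0.0471) scales. Pde4b gave 0.29 in Control-shRNA (adjusted p = 0.00182) and −0.05 in Dnmt3a1-shRNA (adjusted p = 0.542), and Pde4a gave −0.12 (adjusted p = 0.123) and −0.28 (adjusted p = 6.14e-04), none of them past the fold threshold. Pde4d and Pde4b have 20 and 13 annotated transcripts, which include long and short forms with different regulation, and the gene-level sums used here do not separate them.

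Of the 3 tested cGMP-specific phosphodiesterases, Pde9a fell under both hairpins, Pde5a fell in Dnmt3a1-shRNA and Pde6c rose in Control-shRNA. Pde9a, the enzyme with the highest affinity for cGMP, read 10.4, 9.81, 10.9 and 7.46 CPM at baseline and 5.48, 7.53, 6.65 and 7.01 CPM with bicuculline in Control-shRNA, where 1 treated library (replicate 2) lay just above the lowest baseline library. In Dnmt3a1-shRNA it read 14.0, 12.4, 10.6 and 12.8 CPM and 5.65, 7.92, 7.98 and 6.93 CPM, with no overlap. Its log2 fold change was −0.53 ± 0.14 (SE, adjusted p = 0.00476) and −0.80 ± 0.14 (SE, adjusted p = 1.08e-04). The Control-shRNA call was lost without baseline replicate 1 (−0.496, adjusted p = 0.0162), baseline replicate 3 (−0.47, adjusted p = 0.0191) or bicuculline replicate 1 (−0.45, adjusted p = 0.0179).

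Pde5a, the target of sildenafil, read 4.40, 4.57, 4.09 and 4.40 CPM and, with bicuculline, 2.84, 2.72, 3.95 and 3.39 CPM in Control-shRNA. The same gene read 5.67, 4.66, 5.21 and 6.56 CPM and 4.02, 4.32, 3.39 and 3.82 CPM in Dnmt3a1-shRNA. Treated libraries were lower than baseline libraries in every case. The log2 fold change of −0.504 ± 0.13 (SE, adjusted p = 0.00459) in Dnmt3a1-shRNA was called and that of −0.43 ± 0.14 (SE, adjusted p = 0.0157) in Control-shRNA was not. Without Control-shRNA bicuculline replicate 3 the latter became −0.55 (adjusted p = 0.00483), and without Dnmt3a1-shRNA baseline replicate 1, baseline replicate 4 or bicuculline replicate 3 the former became −0.49 (adjusted p = 0.0119), −0.41 (adjusted p = 0.0219) and −0.45 (adjusted p = 0.0167). The Dnmt3a1-shRNA call was lost in 8 of the 10 alternative settings, namely DESeq2 (−0.48, adjusted p = 0.00296), DESeq2 size factors (−0.48, adjusted p = 0.00640), voom (−0.496, adjusted p = 0.00477), a minimum of 10 counts (−0.49, adjusted p = 0.00515), the replicate block (−0.499, adjusted p = 0.00345), only the groups compared (−0.49, adjusted p = 0.0130), log2(TPM + 1) (−0.36, adjusted p = 0.143) and log2(TPM + 0.1) (−0.57, adjusted p = 0.148).

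Pde6c, the cone photoreceptor enzyme, was called higher in Control-shRNA on between 5 and 19 counts per library. Its values were 0.165, 0.185, 0.213 and 0.486 CPM at baseline and 0.558, 0.355, 0.549 and 0.666 CPM with bicuculline, which overlapped, and 0.316, 0.163, 0.254 and 0.404 CPM and 0.515, 0.481, 0.642 and 0.295 CPM in Dnmt3a1-shRNA, which overlapped too. This gave a log2 fold change of 1.01 ± 0.36 (SE, adjusted p = 0.0333) in Control-shRNA and 0.76 ± 0.37 (SE, adjusted p = 0.105) in Dnmt3a1-shRNA. The call did not survive the removal of Control-shRNA baseline replicate 1 (0.85, adjusted p = 0.0986), 2 (0.88, adjusted p = 0.0950) or 3 (0.93, adjusted p = 0.0841) or of bicuculline replicate 1 (0.99, adjusted p = 0.0619), 3 (0.999, adjusted p = 0.0640) or 4 (0.88, adjusted p = 0.0994), and it was lost in 5 of the 10 alternative settings, among them library sizes alone (0.86, adjusted p = 0.0641) and log2(TPM + 0.1) (0.66, adjusted p = 0.0695).

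Members that are not cyclic nucleotide phosphodiesterases or lack a catalytic domain were not called with bicuculline. Pde6d, a chaperone of prenylated proteins, gave −0.39 and −0.45, Pde4dip 0.28 and 0.25, and Pde12 0.26 and 0.30 on the log2 scale in Control-shRNA and Dnmt3a1-shRNA, each past the p threshold alone. Pde12 shares 527 exon bases with Arf4 on the opposite strand, an abundant gene that was called higher with bicuculline (log2 fold change 0.84 and 0.95), and what part of the Pde12 value comes from it was not tested. Pde6h gave 0.24 ± 0.31 (SE, adjusted p = 0.576) and −0.19 ± 0.34 (SE, adjusted p = 0.682).

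**Figure D4:**
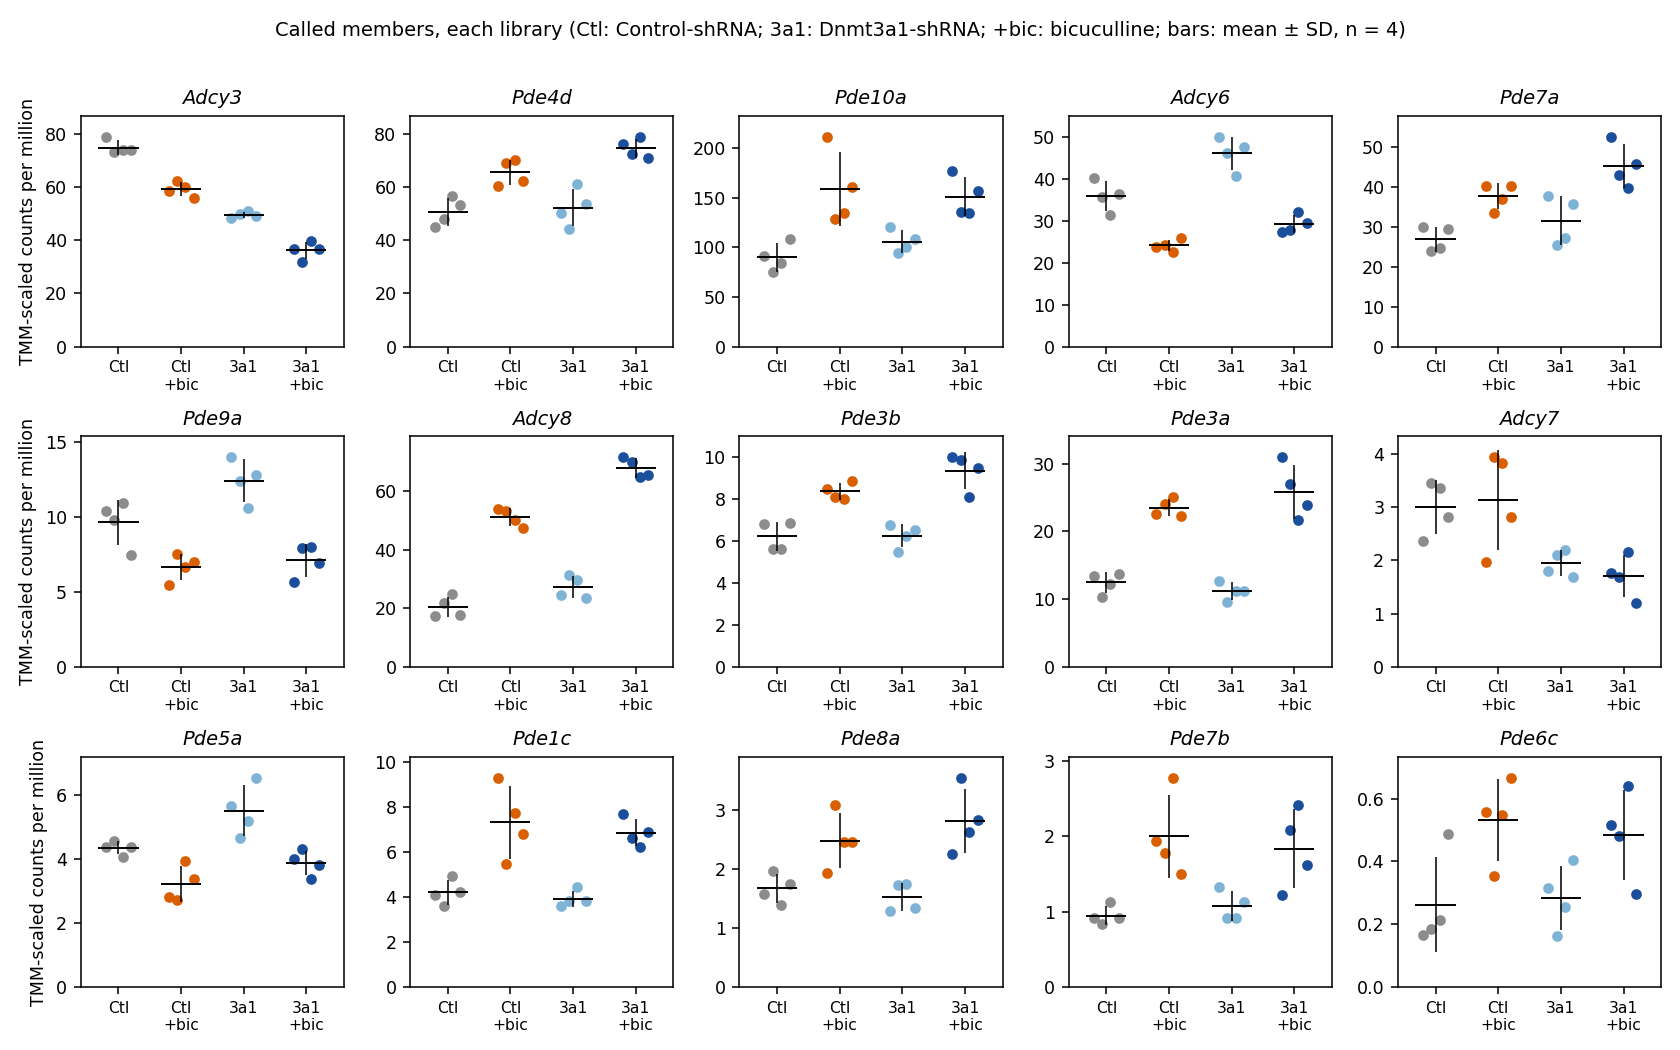
CPM of the 15 members called in at least 1 comparison, 1 point per library in the 4 groups, with the mean and SD (n = 4). Adcy8 and Pde3a separate by treatment under both hairpins, Adcy3 separates by hairpin at baseline and with bicuculline, and the groups of Pde6c overlap.

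The direction of the smaller changes depended on how libraries were scaled. Scaled by library size alone, the typical gene's change with bicuculline (median log2 fold change) was −0.15 in Control-shRNA and −0.16 in Dnmt3a1-shRNA, so the changes given here are relative to that gene. The split of called members was then 5 higher and 5 lower in Control-shRNA (against 7 and 2) and 5 higher and 7 lower in Dnmt3a1-shRNA (against 9 and 3). On the log2(TPM + 1) scale the split was 3 and 5 in Control-shRNA and 2 and 8 in Dnmt3a1-shRNA, and on the log2(TPM + 0.1) scale 5 and 5, and 4 and 8. Over all genes, calls in Control-shRNA numbered 4397 (library sizes alone), 3679 (log2(TPM + 1)) and 4455 (log2(TPM + 0.1)), beside 3765 in the main fit. In Dnmt3a1-shRNA they numbered 5107, 4257 and 5119, beside 4436. Calls of higher members lost with library sizes alone were Pde6c and Pde8a in Control-shRNA and Pde10a, Pde3b, Pde4d and Pde7a in Dnmt3a1-shRNA, log2(TPM + 0.1) lost these and in Dnmt3a1-shRNA also Pde7b and the lower Pde5a, and log2(TPM + 1) lost these and Pde1c and Pde7b in Control-shRNA and Pde1c and Pde8a in Dnmt3a1-shRNA. The members gained in at least 1 of these settings were all lower, namely Pde1a, Pde6d and Adcy3 under both hairpins, Pde5a in Control-shRNA, and Adcy9, Adcy7 and Pde4a in Dnmt3a1-shRNA. Under both hairpins Adcy8, Pde3a, Adcy6 and Pde9a kept their calls in all 10 alternative settings tried, and Adcy8, Pde3a and Adcy6 kept them whichever of the 16 libraries was left out.

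The second question was what reduced Dnmt3a1 did to the same genes. At baseline 1 of the 31 tested members was called (3.23%, against 5.83% of all genes), with 0 higher (1.76% of all genes) and 1 lower (4.07% of all genes). With bicuculline 2 were called (6.45%, against 5.89% of all genes), with 0 higher (2% of all genes) and 2 lower (3.9% of all genes). No phosphodiesterase was called in either comparison, although Pde4b at baseline and Pde8b with bicuculline passed the p threshold below the fold threshold. The called genes were the cyclases Adcy3 and Adcy7. Beside these values, the GABAergic list (0 of 3 called) summed to 877 to 1002 TPM in Control-shRNA and 560 to 742 TPM in Dnmt3a1-shRNA at baseline. The excitatory list (0 of 4 called) summed to 1607 to 1695 TPM and 1374 to 1564 TPM there. Its genes went both ways in edgeR, Slc17a7 and Camk2a at −0.18 and −0.14 and Neurod2 and Neurod6 at 0.45 and 0.12. The median log2 fold change of that list was −0.0084. At baseline 1 of 5 neuronal markers (Tubb3) and 1 of 6 tested fibroblast and vessel markers (Pdgfrb) were higher with Dnmt3a1-shRNA. In both states 1 of 7 astrocyte markers was higher and 1 of 2 tested microglial markers lower. The part of these cell types in the members' changes was not tested. These comparisons share libraries with the bicuculline comparisons above, and their values are set side by side only. The plot of knockdown changes gives every tested member.

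**Figure D5:**
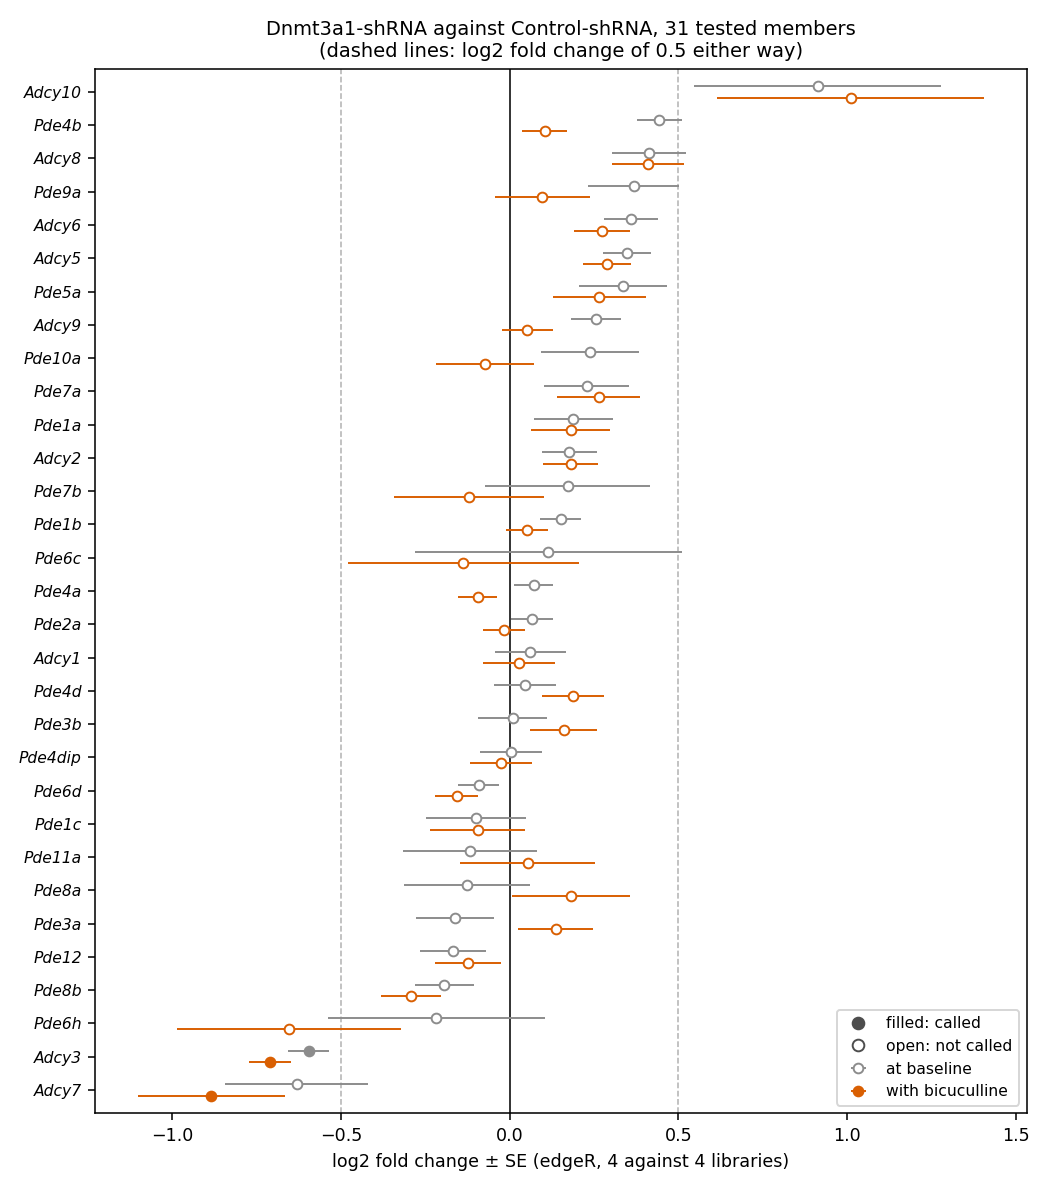
Log2 fold change (± SE) of the 31 tested members in Dnmt3a1-shRNA against Control-shRNA at baseline and with bicuculline (n = 4 libraries per group), with filled points for called members. Adcy3 lies at −0.60 and −0.71, Adcy7 at −0.63 and −0.88, and the widest bars belong to low-count members such as Adcy10.

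Adcy3, the calcium-stimulated cyclase of neuronal primary cilia and olfactory neurons (chr12:4133103-4213525, plus strand), was lower with Dnmt3a1-shRNA in both states. At baseline it read 79.0, 73.1, 74.0 and 73.9 CPM in Control-shRNA and 48.4, 50.1, 50.9 and 49.1 CPM in Dnmt3a1-shRNA. With bicuculline it read 58.7, 62.4, 60.1 and 55.9 CPM and 36.7, 31.9, 39.8 and 36.6 CPM. All Dnmt3a1-shRNA libraries lay below all Control-shRNA libraries of the same state. On the log2 scale the change was −0.60 ± 0.06 (SE, adjusted p = 4.34e-06) at baseline and −0.71 ± 0.06 (SE, adjusted p = 5.84e-07) with bicuculline, or 0.662 and 0.612 times the Control-shRNA level. Adcy3 was the only member called in both knockdown comparisons, and it kept both calls in all 10 alternative settings and whichever of the 16 libraries was left out. Its share of the summed cyclase TPM was 12.4 ± 1.11% in Control-shRNA and 7.69 ± 0.409% in Dnmt3a1-shRNA at baseline, and 9.63 ± 0.747% and 5.60 ± 0.315% with bicuculline. Of its 6246 annotated exon bases 1380 are shared with Cenpo on the opposite strand, a gene with a mean of 98.9 counts per library against 1627 for Adcy3 whose own log2 fold change was 0.01 at baseline and −0.12 with bicuculline.

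Adcy7, a cyclase stimulated by G protein βγ subunits and prominent in immune cells, read 2.37, 3.45, 3.37 and 2.81 CPM in Control-shRNA and 1.80, 2.10, 2.20 and 1.69 CPM in Dnmt3a1-shRNA at baseline. With bicuculline it read 1.96, 3.94, 3.83 and 2.82 CPM and 1.77, 1.68, 2.15 and 1.203 CPM. The baseline groups did not overlap, whereas with bicuculline 1 Control-shRNA library (replicate 1) fell within the range of Dnmt3a1-shRNA. The fitted log2 fold change was −0.63 ± 0.21 (SE, adjusted p = 0.0509) at baseline, which missed the p threshold, and −0.88 ± 0.22 (SE, adjusted p = 0.00916) with bicuculline, which passed both. The latter call was lost on the log2(TPM + 1) (−0.41, adjusted p = 0.0887, limma) and log2(TPM + 0.1) (−0.71, adjusted p = 0.0838, limma) scales. The baseline value became called with the replicate number as a block (−0.63, adjusted p = 0.00538, edgeR quasi-likelihood test with Benjamini-Hochberg adjustment). It also became called without Control-shRNA baseline replicate 1 (−0.73, adjusted p = 0.0402), Control-shRNA bicuculline replicate 1 (−0.63, adjusted p = 0.0222) or 2 (−0.63, adjusted p = 0.0474), or Dnmt3a1-shRNA bicuculline replicate 3 (−0.63, adjusted p = 0.0487) or 4 (−0.63, adjusted p = 0.0463).

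Markers of microglia moved the same way as Adcy7. The 6-gene list summed to 16.1 to 20.6 TPM in Control-shRNA and 8.96 to 15.0 TPM in Dnmt3a1-shRNA at baseline, and to 13.9 to 18.1 and 9.29 to 14.7 TPM with bicuculline. Of its 2 tested genes Csf1r was called lower with Dnmt3a1-shRNA at baseline (log2 fold change −0.66) and with bicuculline (−0.75), and the defining markers Cx3cr1 (0 to 0.0982 TPM) and P2ry12 (0 to 0.448 TPM) were at or near 0 in all libraries. Their part in the Adcy7 result was not tested.

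Several cyclases were higher in Dnmt3a1-shRNA by less than the fold threshold. Adcy8 differed by 0.41 on the log2 scale at baseline (adjusted p = 0.0151) and 0.41 with bicuculline (adjusted p = 0.0124), Adcy6 by 0.36 (adjusted p = 0.00522) and 0.27 (adjusted p = 0.0285), and Adcy5 by 0.35 (adjusted p = 0.00258) and 0.29 (adjusted p = 0.00880). Adcy9 passed the p threshold at baseline alone, at 0.26 (adjusted p = 0.0244) against 0.05 with bicuculline (adjusted p = 0.686). Without Control-shRNA baseline replicate 3 the baseline value of Adcy8 was 0.52 (adjusted p = 0.00377) and counted as called. Adcy10 gave 0.91 ± 0.37 (SE, adjusted p = 0.103) and 1.01 ± 0.40 (SE, adjusted p = 0.0878) on 3 to 15 counts per library, and became called without Dnmt3a1-shRNA baseline replicate 3 at baseline (1.14, adjusted p = 0.0371) and without Control-shRNA bicuculline replicate 4 with bicuculline (1.51, adjusted p = 0.0215). On the TPM scales its baseline difference had the other sign (−0.025, adjusted p = 0.910 for log2(TPM + 1), and −0.0086, adjusted p = 0.993 for log2(TPM + 0.1), limma). Adcy1 and Adcy2 passed neither threshold, at 0.06 and 0.028 for Adcy1 and 0.18 and 0.18 for Adcy2.

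Among phosphodiesterases, Pde4b passed the p threshold at baseline and Pde8b with bicuculline. Pde4b read 36.1, 42.6, 42.1 and 37.6 CPM in Control-shRNA and 51.4, 52.8, 55.8 and 55.6 CPM in Dnmt3a1-shRNA at baseline, with no overlap, and 49.9, 48.8, 49.1 and 45.6 CPM and 57.0, 51.7, 50.1 and 49.1 CPM with bicuculline. The change in log2 units was 0.44 ± 0.07 (SE, adjusted p = 1.66e-04) at baseline and 0.10 ± 0.07 (SE, adjusted p = 0.303) with bicuculline. Pde8b gave −0.19 ± 0.09 (SE, adjusted p = 0.147) and −0.29 ± 0.09 (SE, adjusted p = 0.0290). The remaining tested Pde genes had log2 fold changes between −0.22 (Pde6h) and 0.37 at baseline and between −0.65 (Pde6h) and 0.27 with bicuculline, none past the p threshold.

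The third question was whether the bicuculline response itself differed between the hairpins. By the interaction term no member was called, beside 0% of all genes in edgeR, and at an unadjusted p under 0.05 the counts were 1 of 31 members and 852 of 17222 genes. Over all genes DESeq2 called 18, edgeR with a replicate block 3 and edgeR without a count filter 3. The member at the smallest p was Pde4b, whose change with bicuculline was smaller in Dnmt3a1-shRNA by a log2 difference of −0.34 ± 0.09 (SE, adjusted p = 0.596). For Adcy8 the difference was −0.0045 ± 0.15 (SE, adjusted p = 1), for Adcy3 −0.11 ± 0.09 (SE, adjusted p = 1), and for Pde3a 0.30 ± 0.16 (SE, adjusted p = 1), so the calls made under one hairpin alone (Pde3b, Pde4d, Pde5a, Pde6c and Pde7a) are not shown to differ between hairpins.

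The partners of these enzymes were followed in a list of 47 genes of the cAMP and cGMP pathways, of which 40 were tested. With bicuculline 6 were called in Control-shRNA (3 higher, 3 lower) and 8 in Dnmt3a1-shRNA (4 higher, 4 lower), which is 15% and 20% of those tested beside 21.9% and 25.8% of all genes. Scaled by library size alone the split was 3 higher and 6 lower, and 4 and 6, on the log2(TPM + 1) scale 3 and 7, and 3 and 6, and on the log2(TPM + 0.1) scale 3 and 7 under both hairpins, while DESeq2 size factors gave 5 and 3 in Control-shRNA. Of 9 protein kinase A subunit and inhibitor genes 1 rose, Prkar2a, which encodes a type II regulatory subunit, from 108 ± 8.6 to 319.6 ± 71.1 CPM in Control-shRNA (log2 fold change 1.56 ± 0.13 SE, adjusted p = 3.69e-08) and from 105 ± 4.5 to 307 ± 49.0 CPM in Dnmt3a1-shRNA (1.55 ± 0.13 SE, adjusted p = 2.99e-08). Prkg2, a cGMP-dependent kinase, rose from 1.95 ± 0.48 to 5.64 ± 1.1 CPM (1.53 ± 0.17 SE, adjusted p = 9.62e-07) and from 1.91 ± 0.21 to 6.37 ± 0.41 CPM (1.74 ± 0.17 SE, adjusted p = 1.67e-07), and the soluble guanylyl cyclase subunit Gucy1a2 was called in Dnmt3a1-shRNA alone (0.79 ± 0.23 SE, adjusted p = 0.00849), but not on the log2(TPM + 1) (0.52, adjusted p = 0.0585) and log2(TPM + 0.1) (0.58, adjusted p = 0.0541) scales. No G protein alpha subunit gene (7 tested) was called.

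The anchoring proteins that hold protein kinase A and phosphodiesterases in place had 3 of 12 tested genes lower and 1 higher with bicuculline in Control-shRNA (11.1% and 10.8% of all genes) and 4 lower and 1 higher in Dnmt3a1-shRNA (13.2% and 12.6% of all genes), a split that was not tested. The mitochondrial anchor Akap1 fell from 55.3 ± 1.9 to 30.2 ± 2.7 CPM (−0.87 ± 0.07 SE, adjusted p = 3.22e-08) and from 63.0 ± 3.3 to 28.8 ± 2.4 CPM (−1.13 ± 0.07 SE, adjusted p = 9.41e-10), and the postsynaptic anchor Akap5 by −0.54 and −0.73 on the log2 scale, while Akap13 rose by 1.16 and 1.19. Between hairpins, 4 of the 40 were called at baseline (1 higher, 3 lower) and 6 with bicuculline (1 higher, 5 lower), or 10% and 15% beside 5.83% and 5.89% of all genes. Akap7 was lower in Dnmt3a1-shRNA at baseline (−0.63 ± 0.14 SE, adjusted p = 0.00361) and with bicuculline (−0.95 ± 0.14 SE, adjusted p = 1.71e-04), as was the natriuretic peptide receptor Npr2, a membrane guanylyl cyclase (−0.89 ± 0.11 SE, adjusted p = 3.63e-05, and −0.78 ± 0.11 SE, adjusted p = 1.31e-04). Prkar2b, a type II regulatory subunit of protein kinase A, was the gene higher in both (0.55 ± 0.07 SE, adjusted p = 7.11e-05, and 0.52 ± 0.07 SE, adjusted p = 1.22e-04), and was named after its values were seen. Its values fell under the fold threshold without Dnmt3a1-shRNA baseline replicate 1 at baseline (0.49, adjusted p = 3.26e-04), and with bicuculline without Control-shRNA bicuculline replicate 2 (0.48, adjusted p = 6.57e-04) or Dnmt3a1-shRNA bicuculline replicate 1 (0.47, adjusted p = 5.29e-04). Both Prkar2b calls were also lost with library sizes alone (0.47, adjusted p = 1.84e-05, and 0.45, adjusted p = 3.01e-05), on the log2(TPM + 1) scale (0.43, adjusted p = 4.55e-04, and 0.41, adjusted p = 6.82e-04) and on the log2(TPM + 0.1) scale (0.43, adjusted p = 5.28e-04, and 0.41, adjusted p = 7.18e-04), and the baseline call of Akap7 on both TPM scales (−0.63, adjusted p = 0.0849, and −0.65, adjusted p = 0.0929).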

How the data were processed

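RNA of 16 primary hippocampal cultures was sequenced on the BGISeq-500 platform. Per the labels, reads were trimmed with Trim Galore (version 0.6.4), quantified with kallisto and referred to GRCm38.p6, and the authors deposited for each library a table of estimated counts per gene and a table of TPM, with all transcripts of a gene summed. The strand setting is not given in the sources used here. Identifiers were matched to GENCODE M21 names (55144 of 55385). The deposited estimated counts were rounded, genes with low counts were removed by filterByExpr, and the 17222 remaining genes of all 4 groups were fitted together in edgeR 4.0.16 (TMM scaling, quasi-likelihood test, Benjamini-Hochberg adjustment over all genes, R 4.3.3). CPM in the text are TMM-scaled. TMM factors ran from 0.871 to 1.12 and the mitochondrial share of counts from 2.73% to 6.60%. Standard errors are the absolute log2 fold change over the square root of the F statistic. The study's methods used limma with voom, which was run as an alternative (limma 3.58.1), as were DESeq2 1.42.0, library sizes alone, DESeq2 size factors, other count filters, log2(TPM + 1) and log2(TPM + 0.1) in limma, a replicate block, separate fits of the groups compared and the removal of each library. The fit was tested on simulated data.

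The members, the pathway list and the marker lists were chosen with earlier results of these data known. Named were all members called in any comparison and the 8 called pathway genes with the largest change and a mean of at least 1 CPM. Further genes are named where a count or a contrast with a called paralog needed them. As a check of pairing, each library's departure from the mean of its group was correlated with that of the library bearing the same number, and r ranged from 0.224 to 0.345 and from 0.0949 to 0.477 between the bicuculline and baseline libraries of Control-shRNA and Dnmt3a1-shRNA, and from 0.313 to 0.490 and from 0.163 to 0.519 between hairpins at baseline and with bicuculline. No 2 replicates of a group agreed within counting noise (chi-square per degree of freedom of 7.89 to 44.6), so none was treated as 1 library deposited more than once. This does not speak to preparations shared across groups, which the replicate block addresses. Promoter windows and their start sites came from RefSeq (GRCm38.p6) and were found for 27 of 36 members.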

Additional observations from a re-analysis of the deposited data

Results flagged for a closer look

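In 60 groups of 4 libraries (15 called members in 4 groups), 2 held a library that stood apart from the others by Dixon's criterion, where chance alone flags about 1 group in 20. Pde6c read 0.486 CPM in Control-shRNA baseline replicate 4 and between 0.165 and 0.213 CPM in the other baseline libraries. Adcy3 read 79.0 CPM in Control-shRNA baseline replicate 1 and between 73.1 and 74.0 CPM in the others, still above every library of the remaining groups.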

How the results depend on the processing

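Values near the log2 threshold of 0.5 limit these counts, as do the low counts of Adcy10 and Pde6c and the gene-level sums. Without a fold threshold the called members numbered 20 and 20 with bicuculline in Control-shRNA and Dnmt3a1-shRNA (9 and 12 with it) and 6 and 6 between hairpins at baseline and with bicuculline (1 and 2 with it), and above a log2 fold change of 1 they numbered 3, 2, 0 and 0. The pathway list gave 20, 18, 11 and 14 without a fold threshold and 3, 4, 1 and 1 above 1, against 6, 8, 4 and 6. The share of all genes called at these other thresholds was not counted, so these numbers show no response particular to either list. Between hairpins at baseline 2 members were called with library sizes alone, DESeq2, a minimum of 10 counts in every library, the replicate block or only the groups compared, the gain being Adcy7. Over all genes these settings called 1119, 993, 926, 1284 and 930, beside 1004, with the genes tested differing by count filter. With bicuculline 1 member was called between hairpins on both TPM scales, Adcy7 being lost. Over all genes log2(TPM + 1) called 787 and log2(TPM + 0.1) 1018, beside 1015. In the pathway list log2(TPM + 1) gave 10 with bicuculline in Control-shRNA and 1 at baseline between hairpins, and log2(TPM + 0.1) gave 10 in the former. Leaving out single libraries gave 6 to 10, 9 to 12, 1 to 2 and 2 to 3 called members in the 4 comparisons, 6 to 8, 8 to 9, 3 to 4 and 4 to 6 called pathway genes, and 0 in the interaction. Pde3b changed sign with bicuculline in Control-shRNA on the log2(TPM + 1) scale (−0.0258) and the log2(TPM + 0.1) scale (−0.0277), and Adcy10 between hairpins at baseline (−0.0250 and −0.00856). Same-numbered libraries correlated positively throughout, at 0.0949 in the lowest pair, between bicuculline and baseline libraries of Dnmt3a1-shRNA. Between treatments, the same-numbered baseline library was the best match except for Control-shRNA replicate 1 and Dnmt3a1-shRNA replicate 4. Between hairpins, the same-numbered Control-shRNA library was the best match except for replicates 3 and 4 with bicuculline. In every group the mitochondrial share was highest in replicate 1 and lowest in replicate 3. The labels do not say what the numbers mean, and the main fit held no block. With the replicate block the called members were 9, 11, 2 and 2, Pde5a being lost in Dnmt3a1-shRNA and Adcy7 gained at baseline, and it changed no other member's call. Over all genes the block called 3986, 4612, 1284 and 1338. Counting every setting separately, single-gene values lost their call 73 times and gained it 47 times with the same direction. The causes were not tested.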
